A study of Rapana venosa with 9 samples.

Results

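The 155 miRNAs described here were predicted by the authors from small RNA of the veined rapa whelk, Rapana venosa, a marine gastropod, and they are every entry of the authors' count table that carries the predicted-miRNA prefix, out of 918 miRNA references in all. The other 763 references were known miRNAs that the authors took from miRBase, a catalogue of published miRNAs. Small RNA was sequenced from postlarvae (PL, the crawling juveniles after metamorphosis), from competent larvae (CL, swimming larvae with 4 spiral whorls that are ready to metamorphose) and from precompetent larvae (Pre-CL, swimming larvae with 3 spiral whorls), with 3 libraries for each stage. The animals were untreated offspring of wild parents, reared on microalgae as larvae. Each replicate was described as 40 to 100 pooled individuals, while the extraction was described for the intestine of an individual, and which holds for these libraries was not settled by the labels. In such bulk RNA, fewer cells of a type and less RNA per cell cannot be told apart. The identifiers of the predicted miRNAs are not printed here. Each is called P with its rank by falling count over all 9 libraries, so that P1 has the most counts, and its sequence is given where the results turn on it.

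A miRNA is cut from the stem of a hairpin precursor, and each hairpin can give a mature strand from its 5p arm, from its 3p arm or from both. The mature strand guides an Argonaute protein to messenger RNAs that pair with its bases 2 to 8, the seed, and those messengers are then repressed. A new miRNA is usually inferred from reads that map to a predicted hairpin, and reads of both strands, cut to a regular length, are the customary sign of processing by Drosha and Dicer.

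The sequences below belong to the predicted miRNAs with the most counts and to those that differed most between stages. They are written 5′ to 3′ in DNA letters as deposited, with the seed, bases 2 to 8, in capitals.
P1: aGGGACAActcactgtctgcgtg
P2: cAGGAGACtggctggtatgctg
P3: cTGTGGTTctggtgcttacta
P4: tTGGTTCTgatagggcagctgc
P5: tCTAATGCtgatgctctgtgagt
P6: tCAACAGAaatggcggacccggt
P7: tAGGGACTgtgccatcaacca
P8: cTTCGGCGcgaactcggtcc
P9: tTGTGTAAtattctgtgtcatt
P10: cGGTGTGAgaaagttcgagcgt
P16: tTCAGTGTccgatcgaacttcg
P17: gATCGGGCtttgcgtaggaagca
P22: tTGTATTCgatggctctttcacac
P24: tCCCTGTGgacttccgaccctg
P29: aAGTACTCgcagtatatttggc
P30: aGACTGTTtatcgatctggtgt
P31: tGTAGCTTtctttgctctatac

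Some of the 155 entries repeat one another, and their sequences are shown next because they set how many separate miRNAs the list holds. P14 and P15, P49 and P50, P52 and P53, P54 and P56, P75 and P76, and P81 and P82 each have one sequence under 2 precursors. These 12 entries form 6 pairs with the same count in every library, so the list has 149 distinct sequences. No entries with different sequences had the same counts in all libraries. Once each sequence was counted once, the summed counts equalled the authors' total of tags annotated as predicted miRNA in all 9 libraries, with a difference of 0. P60 and P118 differ by 2 edits and share a run of 16 bases, and P9 and P112 differ by 3 edits. In 12 entries at least 80% of the bases repeat with a period of 6 or less, here called simple repeats. P49, P52 and P131 repeat a CTGTG unit, and P133 repeats GAT.
P14: tGTGGGGAcgggatagctcagt
P49: tGCTGTGCtgtgctgtgctgtg
P52: cTGTGCTGtgctgtgctgtgt
P131: cTGTGCTGtgctgtactgtgct
P133: aTGGTGATgatgatgatgatga
P60: gGAGGTGTatggttgtggctc
P118: gAGATGTAtggttgtggctct
P112: tAGTGTAAtaaactgtgtcatt

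The seeds were nearly all different. The 149 sequences carried 148 seeds, and the single seed held by unlike sequences was that of P52 and its copy P53 with P131, all simple repeats. A seed was shared with a known reference in 12 entries, and for 10 of them that reference had fewer than 100 counts over all libraries. The exceptions were P25, with the seed of miR-153-y (111389 counts), and P7, with the seed of miR-149-y (141 counts) and miR-365-x (2 counts). P25 is given here because its seed partner was abundant, a choice made after its values were seen, and beyond the seed it is another sequence.
P25: gTGCATAGtggctgaagacagaca
Within 2 edits of a known reference lay 10 entries, and all 10 were simple repeats. P133 contained the whole of miR-4502-y.

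The predicted miRNAs had the length of animal miRNAs but few counts. Of the 155, 147 (94.8%) were 21 to 24 nt, with a median of 22 nt, while 29.1% of the known references were of that length and 63.3% of them were 18 to 19 nt. T (U in the RNA) was the base at the 5′ end of 73 predicted miRNAs (47.1%), against 41.2% of known references, and G was at that end in 10 (6.45%), against 17.6%. For T the order was the reverse among references with 100 counts or more, at 52.9% of the predicted and 61.1% of the known. Lengths were not compared at that limit, and how far the prediction itself fixed them was not tested. The median count over all 9 libraries was 31, the lower quartile 17 and the upper quartile 76.5. In 106 entries the count was 10 to 99, and 34 entries had 100 or more. No entry had fewer than 9 counts and 15 had exactly 9, whereas 488 of the 763 known references had fewer than 9. The table holds no count of 1 for any reference in any library, so that a listed 0 can stand for 0 or for 1 tag. Over the 9 libraries, 464 values of the predicted miRNAs (33.3%) were 0 and 158 were 2. Counts were present in all 9 libraries for 36 predicted miRNAs, and the median entry had counts in 6 libraries, against 1 library for the known references.

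**Figure D1:**
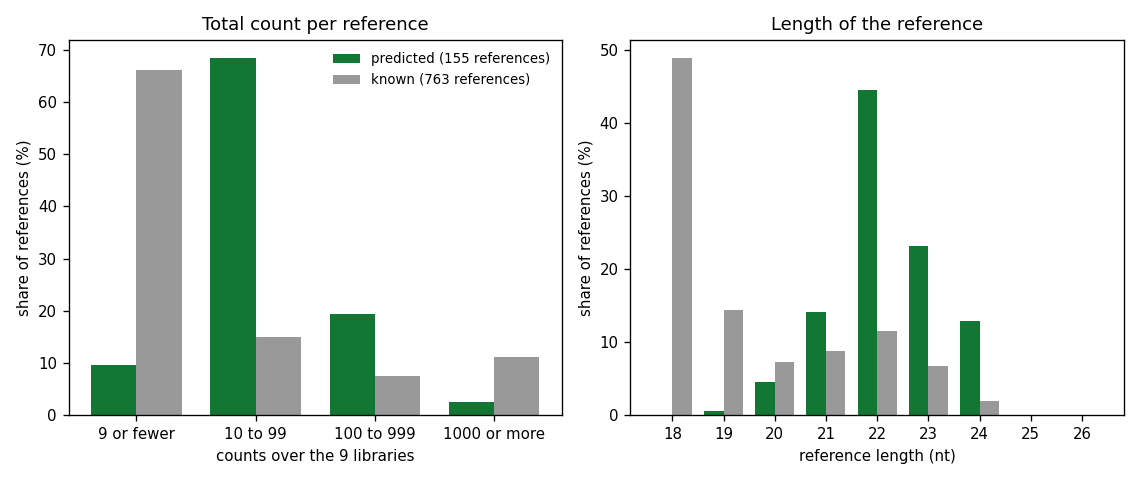
Share of references, in percent, by count over the 9 libraries (left) and by reference length in nt (right), for the 155 predicted miRNAs (green) and the 763 known references (grey). Most predicted miRNAs had 10 to 99 counts and were 21 to 24 nt, while most known references had 9 counts or fewer and were 18 or 19 nt.

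Of the predicted miRNAs 85 came from a 5p arm and 70 from a 3p arm. They represent 146 precursors, of which 76 were listed with the 5p arm alone, 61 with the 3p arm alone and 9 with both. The 5p entries held 37665 counts and the 3p entries 10601. Without P1, a 5p entry, the 5p sum was 7410. Median counts per entry were 27 on the 5p arm and 39 on the 3p arm, and the median length was 22 nt on both. A T at the 5′ end was found in 43.5% of the 5p entries and 51.4% of the 3p entries.

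All predicted miRNAs together held 48266 counts, 0.0944% of the counts in the table, and P1 held 62.7% of them. The 10 with the most counts held 79.1%. Libraries had 3762511 to 6781384 counts on all references and 8235539 to 10694742 clean reads. Per 1000000 miRNA counts, the predicted miRNAs summed to 1136 ± 167 in Pre-CL, 821 ± 15.5 in CL and 867 ± 85.8 in PL (SD, n = 3 libraries each). The Pre-CL libraries, at 972 to 1305, lay above the CL libraries at 807 to 837 and the PL libraries at 792 to 960, and the CL and PL libraries overlapped. The order depended on P1, whose share of the predicted counts was 64.0 to 68.7% in Pre-CL, 61.9 to 65.3% in CL and 51.7 to 58.3% in PL. Without P1 the sums per 1000000 were 378 ± 28.9 in Pre-CL, 295 ± 14.7 in CL and 395 ± 18.0 in PL (SD, n = 3 each), with CL lowest and with Pre-CL and PL overlapping. Between 90 and 110 of the 155 had counts in a given library.

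To ask which predicted miRNAs differed between stages, the deposited counts of all references were fitted together with edgeR's quasi-likelihood test. Levels are given as CPM, counts per 1000000 after edgeR's TMM scaling. Each tag was counted whole, with no correction for length, and how evenly different sequences were captured in the libraries was not measured, so levels of different miRNAs are compared as counted. A miRNA was called where the Benjamini-Hochberg adjusted p over the 214 references tested was under 0.05 and the fold change was over 2, and the value after each log2 fold change is its standard error (SE). The filter on low counts passed 51 of the 155 (48 sequences), with 47 counts or more each, where those left out had up to 74, and 11 of the 51 had 0 counts in all libraries of a stage. Those 11 passed through the stages in which they were present, so the shares below describe the tested entries and not the whole list.

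Of the 51 tested, 34 (32 sequences) were called in at least 1 comparison, beside 57.9% of all 214 references. In CL against Pre-CL, 18 predicted miRNAs were called, 35.3% of those tested beside 19.6% of all references, 9 of them higher (10.3% of all references) and 9 lower (9.35%). In PL against CL, 17 were called, 33.3% beside 36.9%, with 5 higher (22.4%) and 12 lower (14.5%). In PL against Pre-CL, 30 were called, 58.8% beside 50.5%, with 10 higher (28.5%) and 20 lower (22%). Median log2 fold changes of the 51 were -0.42 in CL against Pre-CL, -0.74 in PL against CL and -0.65 in PL against Pre-CL, where those of all tested references were -0.29, 0.20 and 0.06 in the same order. These differences between the predicted and the other references were not tested. When total miRNA counts replaced TMM as library size, the median of all references moved to 0.79 in PL against CL and to 0.63 in PL against Pre-CL, and the calls were then 9 higher and 7 lower in PL against CL and 16 higher and 15 lower in PL against Pre-CL. The number lower in CL than in Pre-CL, 9, was 4, 3 and 5 without CL 1, CL 2 and CL 3. The number called in PL against CL, 17, was 11 without CL 3, 10 without PL 1 and 11 without PL 2, and the 12 lower ones became 7 without CL 2 and 6 without each of CL 3, PL 1 and PL 2. With only the 6 libraries of a comparison filtered and fitted, those higher were 4 in CL against Pre-CL, 8 in PL against CL and 6 in PL against Pre-CL. Without Pre-CL 3, the numbers higher in PL were 8 against CL and 16 against Pre-CL.

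**Figure D2:**
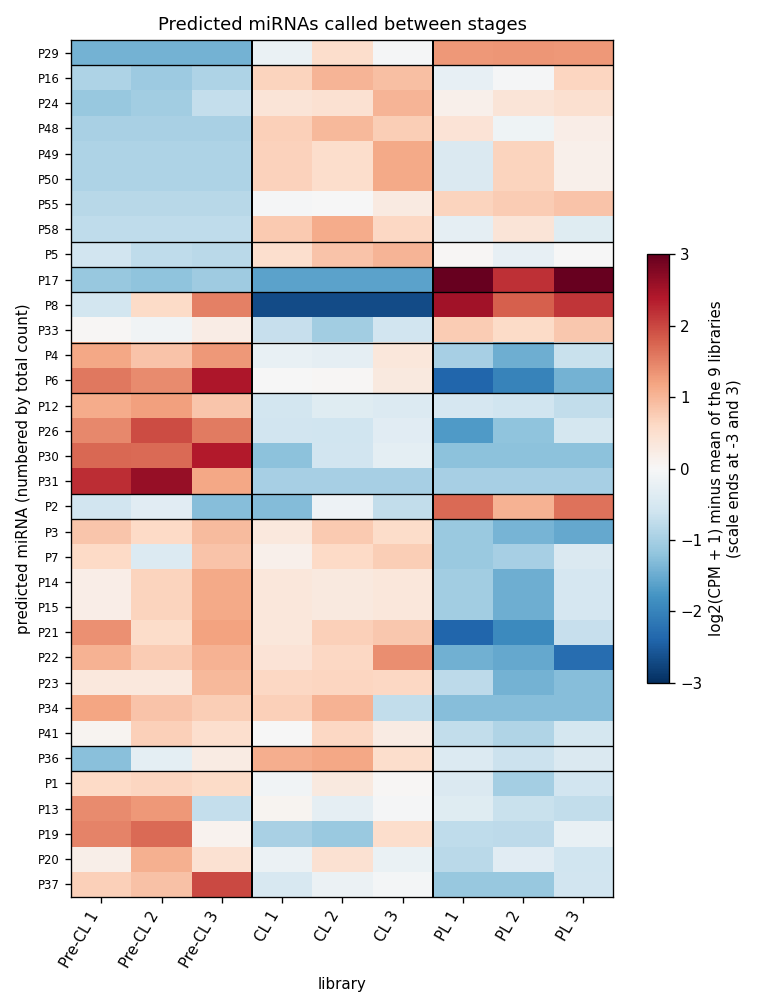
The 34 predicted miRNAs called in at least 1 comparison, as log2(CPM + 1) in each library minus the mean of the 9 libraries (red above, blue below, ends at -3 and 3), in rows grouped by which comparisons were called and in which direction. P8 and P17 are lowest in all 3 CL libraries and highest in PL, and P31 has counts in the Pre-CL libraries alone.

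A few abundant predicted miRNAs were called higher after metamorphosis. P2, the second by count, had 64, 89 and 30 counts in the Pre-CL libraries, 46, 87 and 47 in the CL libraries and 306, 289 and 373 in the PL libraries. Every PL library lay above every larval library, and the larval stages overlapped. Its level averaged 52.9 ± 12.6 CPM in PL and 11.3 ± 4.86 CPM in CL (SD, n = 3 each), a log2 fold change of 2.23 ± 0.44 (SE; edgeR, adjusted p = 0.00281). Against the 11.1 ± 3.77 CPM of Pre-CL the log2 fold change in PL was 2.25 ± 0.44 (SE; edgeR, adjusted p = 0.00215).

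P8 and P17, the 3p and 5p strands of a single precursor, were listed at 0 in every CL library. P8 had 18, 53 and 74 counts in the Pre-CL libraries and 178, 160 and 173 in the PL libraries. P17 had 2 counts in each Pre-CL library and 118, 97 and 148 in the PL libraries. For both strands, all 3 PL libraries were above all others. Fold bounds here and below divide the mean CPM of the stage with counts by the mean CPM of a floor of 3 counts per library in the other. They leave out the spread between libraries. Against a floor of 3 counts in each CL library, P8 was at least 49.9-fold higher in PL than in CL (edgeR, adjusted p = 0.00055) and P17 at least 35.5-fold higher (adjusted p = 0.000108). P8 was also at least 17.2-fold lower in CL than in Pre-CL (edgeR, adjusted p = 0.00335). In PL against Pre-CL, P17 was called higher (edgeR, adjusted p = 0.000178), with 363 counts in PL and 6 in Pre-CL over the 3 libraries of each, a ratio of 51.0 after scaling (exact 95% interval 23.2 to 140 for counting error only). In the same comparison P8, with 28.1 ± 7.21 CPM in PL and 9.67 ± 6.95 CPM in Pre-CL (SD, n = 3 each), had a log2 fold change of 1.54 ± 0.60 (SE; edgeR, adjusted p = 0.0626) and was not called. P17 was called lower in CL than in Pre-CL as well, but with 2 counts per Pre-CL library both stages lay under the floor and no fold is given. That call was lost with DESeq2 (adjusted p = 0.0524), without a filter on low counts (edgeR, adjusted p = 0.0614) and without CL 1, CL 2 or CL 3 (edgeR, adjusted p = 0.0719, 0.0808 and 0.0548).

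A weaker dip in CL was seen for P33, which had 10 counts in each Pre-CL library, 5, 2 and 4 in the CL libraries and 19, 24 and 25 in the PL libraries. In PL against CL its log2 fold change was 2.41 ± 0.42 (SE; edgeR, adjusted p = 0.00176), and it was -1.49 ± 0.42 in CL against Pre-CL (adjusted p = 0.0326). The call in CL against Pre-CL was lost without any 1 of the 9 libraries (edgeR, adjusted p = 0.062 to 0.215), with DESeq2 (adjusted p = 0.0995) and without a filter on low counts (edgeR, adjusted p = 0.499).

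**Figure D3:**
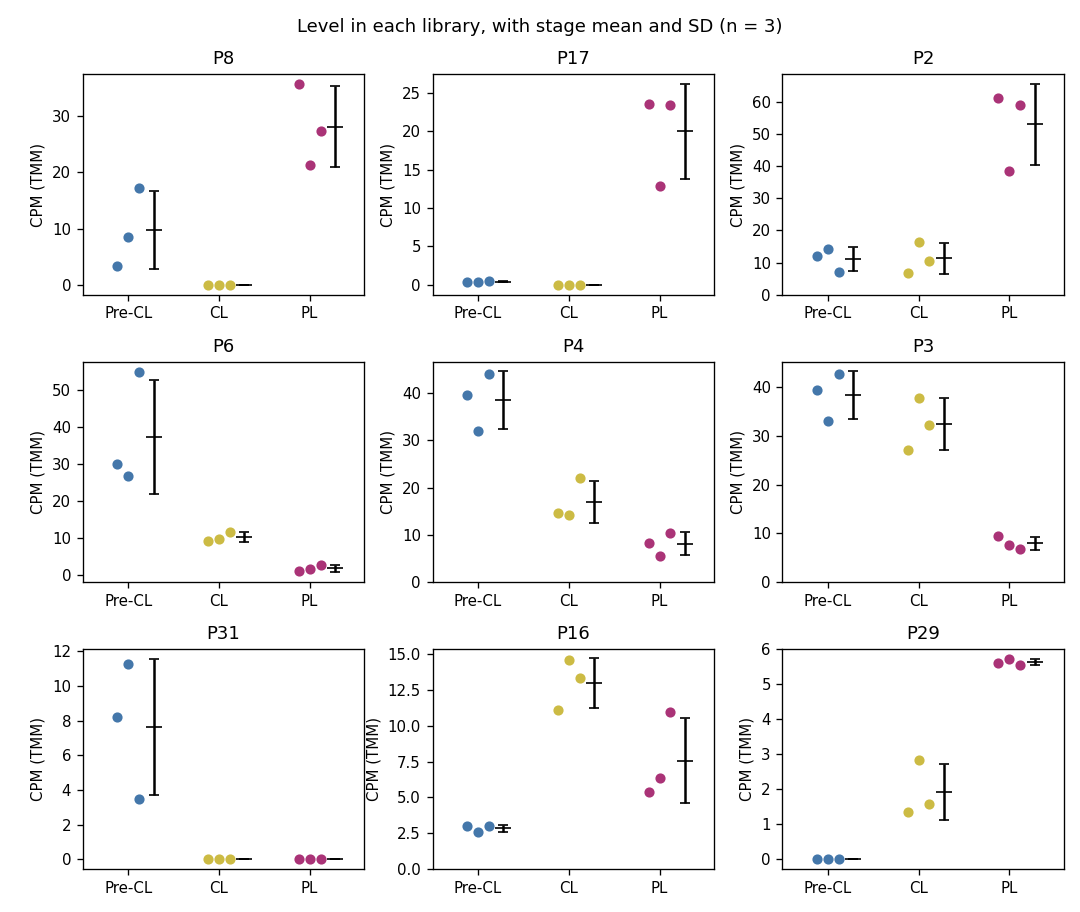
CPM (TMM-scaled) of 9 predicted miRNAs in each library, by stage from Pre-CL to PL, with a black bar for the stage mean and its SD (n = 3 libraries). P8 and P17 are at 0 in all CL libraries and high in PL, P6 and P4 step down at each stage, and P29 is at 0 in Pre-CL.

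Other predicted miRNAs were lower at each later stage or after the precompetent stage. P6 had 160, 166 and 237 counts in the Pre-CL libraries, 63, 51 and 52 in the CL libraries and 5, 12 and 18 in the PL libraries. No library of a later stage reached one of an earlier stage. Its log2 fold change was -1.86 ± 0.44 in CL against Pre-CL (SE; edgeR, adjusted p = 0.0167), -2.47 ± 0.47 in PL against CL (adjusted p = 0.00247) and -4.33 ± 0.49 in PL against Pre-CL (adjusted p = 0.000185). The call in CL against Pre-CL was lost without CL 1, CL 2 or CL 3 (edgeR, adjusted p = 0.0668, 0.0859 and 0.0513).

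P4 followed the same order, with 212, 199 and 191 counts in the Pre-CL libraries, 99, 75 and 98 in the CL libraries and 41, 42 and 66 in the PL libraries. In PL against Pre-CL its log2 fold change was -2.25 ± 0.36 (SE; edgeR, adjusted p = 0.000941). The steps were near the fold limit, -1.19 ± 0.34 in CL against Pre-CL (SE; edgeR, adjusted p = 0.0351) and -1.07 ± 0.35 in PL against CL (adjusted p = 0.034). The CL against Pre-CL call was lost without any 1 of the 9 libraries (edgeR, adjusted p = 0.0513 to 0.215), and the PL against CL call without Pre-CL 2 (adjusted p = 0.0518), CL 1 (0.0665), CL 2 (0.0653), CL 3 (0.216), PL 1 (0.13) or PL 2 (0.155), with clean reads as library size (0.0509) with total miRNA counts (0.184) and without a filter on low counts (0.145). Without that filter the CL against Pre-CL call was lost too (edgeR, adjusted p = 0.203).

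P31 and P30 were largely precompetent. P31 had 44, 70 and 15 counts in the Pre-CL libraries and 0 in all 6 others. Its Pre-CL libraries spread from 3.47 to 11.3 CPM. By their mean, P31 was at least 13.6-fold lower in CL (edgeR, adjusted p = 0.00554) and at least 15.6-fold lower in PL (adjusted p = 0.0019) than in Pre-CL. P30 had 36, 41 and 48 counts in the Pre-CL libraries, 0, 3 and 4 in the CL libraries and 0 in each PL library. It was called lower in CL than in Pre-CL (edgeR, adjusted p = 0.0178), with 7 counts in CL and 125 in Pre-CL, a ratio of 0.054 after scaling (exact 95% interval 0.0213 to 0.115 for counting error only). That call was not past the threshold without CL 2 (edgeR, adjusted p = 0.07). In PL it was at least 16.6-fold lower than in Pre-CL (edgeR, adjusted p = 0.00142). P12 and P26 were called lower in the same comparisons as P30 and P31, in CL and in PL, both against Pre-CL. The share of all tested references with these calls was not taken.

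A further 9 entries were lower after metamorphosis without a call between the larval stages. P3, P7, P14, P15, P21, P22, P23, P34 and P41 were called lower in PL against CL and against Pre-CL and were not called between CL and Pre-CL. P14 and P15 are one sequence, so these are 8 sequences, and the 9 entries were 17.6% of the 51 tested, beside 11.2% of all 214 references with the same calls. P3 had 211, 205 and 185 counts in the Pre-CL libraries, 183, 200 and 143 in the CL libraries and 47, 57 and 43 in the PL libraries. The PL libraries lay below all 6 larval libraries. Its level was 7.93 ± 1.34 CPM in PL and 32.4 ± 5.39 CPM in CL (SD, n = 3 each), a log2 fold change of -2.03 ± 0.29 (SE; edgeR, adjusted p = 0.000756), and against Pre-CL it was -2.27 ± 0.29 (adjusted p = 0.000329).

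P22 had 48, 45 and 39 counts in the Pre-CL libraries, 37, 34 and 52 in the CL libraries and 4, 5 and 0 in the PL libraries, and the PL libraries lay below all 6 others. It was called lower in PL than in CL (edgeR, adjusted p = 0.00251), with 9 counts in PL and 123 in CL, a ratio of 0.064 after scaling (exact 95% interval 0.0286 to 0.126 for counting error only). P21 had 67, 41 and 48 counts in the Pre-CL libraries, 38, 40 and 36 in the CL libraries and 0, 3 and 14 in the PL libraries, so the PL libraries spread widely but lay below all larval libraries. Its log2 fold change in PL against CL was -2.97 ± 0.87 (SE; edgeR, adjusted p = 0.0233), lost without CL 2, CL 3 or PL 2 (adjusted p = 0.0567, 0.0686 and 0.108), and in PL against Pre-CL it was -3.47 ± 0.88 (adjusted p = 0.00792).

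P7 had 106, 59 and 104 counts in the Pre-CL libraries, 97, 106 and 98 in the CL libraries and 27, 45 and 59 in the PL libraries. One Pre-CL library equalled the highest PL library in counts. The log2 fold change in PL was -1.44 ± 0.42 against CL (SE; edgeR, adjusted p = 0.0233) and -1.36 ± 0.42 against Pre-CL (adjusted p = 0.0215). The call against CL was lost without CL 2, CL 3, PL 1 or PL 2 (edgeR, adjusted p = 0.0716, 0.113, 0.107 and 0.108), and that against Pre-CL without Pre-CL 1, Pre-CL 3, PL 1 or PL 2 (adjusted p = 0.0564, 0.0531, 0.111 and 0.107). With total miRNA counts as library size neither was called (edgeR, adjusted p = 0.0575 against CL and 0.0932 against Pre-CL), and the call against Pre-CL was lost without a filter on low counts (0.0616) and with the 6 libraries of that comparison alone (0.0591).

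P1, the abundant one, had 4605, 5555 and 3665 counts in the Pre-CL libraries, 3553, 3662 and 2597 in the CL libraries and 2105, 2094 and 2419 in the PL libraries. In CPM the stages did not overlap, with 361 ± 74.0 in PL, 601 ± 84.7 in CL and 867 ± 23.2 in Pre-CL (SD, n = 3 each). It was called in PL against Pre-CL alone, with a log2 fold change of -1.26 ± 0.22 (SE; edgeR, adjusted p = 0.00118). That change was -0.68, under the fold limit, with total miRNA counts as library size (edgeR, adjusted p = 0.0214). In PL against CL the log2 fold change was -0.74 ± 0.21 (SE; adjusted p = 0.0219) and under the fold limit too.

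Higher levels in both CL and PL than in Pre-CL were found for 8 predicted miRNAs, namely P16, P24, P29, P48, P49, its copy P50, P55 and P58. These 8 entries, or 7 sequences, were 15.7% of the 51 tested, beside 7.94% of all 214 references with the same calls, a difference that was not tested. P16 had 16, 16 and 13 counts in the Pre-CL libraries, 75, 77 and 59 in the CL libraries and 27, 48 and 69 in the PL libraries. All 6 later libraries were above the Pre-CL libraries, and in CPM the PL libraries lay below the CL libraries. The log2 fold change was 2.18 ± 0.37 in CL against Pre-CL (SE; edgeR, adjusted p = 0.00509) and 1.40 ± 0.36 in PL against Pre-CL (adjusted p = 0.00884), the second being lost without a filter on low counts (adjusted p = 0.0695). P24 had 7, 9 and 9 counts in the Pre-CL libraries, 38, 31 and 41 in the CL libraries and 23, 42 and 38 in the PL libraries. P24 had a log2 fold change of 2.09 ± 0.38 in CL against Pre-CL (SE; edgeR, adjusted p = 0.00512) and 1.74 ± 0.38 in PL against Pre-CL (adjusted p = 0.0037).

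The other 6 of this group had no count in Pre-CL. P29 had 9, 15 and 7 counts in the CL libraries and 28, 43 and 35 in the PL libraries, and it was at least 3.31-fold higher in CL than in Pre-CL (edgeR, adjusted p = 0.00322) and at least 9.71-fold higher in PL (adjusted p = 0.000224). It was the one predicted miRNA called higher at both steps, as were 1.4% of all 214 references. Its log2 fold change in PL against CL was 1.55 ± 0.43 (SE; edgeR, adjusted p = 0.0244), which was not past the threshold without CL 1, CL 3, PL 1, PL 2 or PL 3 (adjusted p = 0.0767, 0.0969, 0.0788, 0.0711 and 0.057) or without a filter on low counts (0.222). P48 had 15, 15 and 10 counts in the CL libraries and 8, 6 and 8 in the PL libraries, at least 4.21-fold higher in CL than in Pre-CL (edgeR, adjusted p = 0.00267). For P49, P55 and P58, the lower bounds in CL against Pre-CL were 3.99, 1.51 and 3.54-fold, so that of P55 stayed under the fold limit. P49 is a simple repeat that differs by 1 edit from P52, which had 0.321 to 0.561 CPM in the Pre-CL libraries. How tags were shared out between such repeats was not tested. In PL against Pre-CL the lower bounds, again from stage means, were 2.11-fold for P48, 2.02-fold for P49, 3.46-fold for P55 and 1.10-fold for P58. That of P58 stayed under the fold limit there. The PL libraries of P49 ran from 0.400 to 1.99 CPM, so the lowest lay under its floor of 0.579 CPM. P5 was called in CL against Pre-CL alone. It had 56, 57 and 38 counts in the Pre-CL libraries, 157, 160 and 149 in the CL libraries and 83, 101 and 102 in the PL libraries, with a log2 fold change of 1.61 ± 0.29 in CL against Pre-CL (SE; edgeR, adjusted p = 0.00512). In PL against CL it was -0.91 ± 0.28 (SE; adjusted p = 0.0275), under the fold limit.

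Among the abundant predicted miRNAs, P9 and P10 were called in no comparison. P9 had 70, 62 and 46 counts in the Pre-CL libraries, 60, 67 and 41 in the CL libraries and 73, 96 and 129 in the PL libraries. The log2 fold change in PL against CL was 0.63 ± 0.32 (SE; edgeR, adjusted p = 0.14). P10 had 48, 52 and 34 counts in the Pre-CL libraries, 77, 99 and 63 in the CL libraries and 48, 87 and 123 in the PL libraries, with a log2 fold change of 0.81 ± 0.36 in CL against Pre-CL (SE; edgeR, adjusted p = 0.159). Neither value shows that the levels were equal.

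Both strands were listed for 9 precursors, and 6 of them had at least 40 counts on each arm. The sequences of the 6 pairs that are not given above are shown, since the pairing of the arms rests on them.
P18: tGCGTTGAtcttgagaatcttg
P32: tGGATCTTgagaccaacttgta
P23: aGTACTACagctctggagaggt
P34: cAGCTCAGgactgctgtgc
P33: tTGAGCTGgaagaagcctctgatg
P35: tCAGACTTcaggcagctgtgc
P42: tCTGGAGCaagagcagaagata
P64: cTGGGTATggctgtggcgggg
Folded together with RNAduplex, the 9 pairs formed 12 to 18 base pairs, at -13.2 to -32.5 kcal/mol. The overhang at the 3′ end was not regular, at 0 to 4 bases on the 3p arm and 0 to 3 on the 5p arm. For P8 and P17 it was 0 on the 3p arm and 1 on the 5p arm. The arms come from hairpins that the authors predicted and no unrelated sequences were folded, so these values are no test of processing. P17 and P8 formed 18 pairs at -22.2 kcal/mol. The pair with the most stable duplex, P143 and P142, also formed 18 base pairs but had 9 counts on each arm.

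The strand with more counts was the 5p arm for 4 of the 6 pairs and the 3p arm for P8 over P17 and P5 over P42. P5 had 903 counts and P42, its 5p partner, 74, a ratio of 12.2, and P5 was higher in all 9 libraries. P24 exceeded P64 by 5.95 times, P18 exceeded P32 by 2.72, P23 exceeded P34 by 2.56 and P8 exceeded P17 by 1.78. P33 and P35 were near each other in sum, at 109 and 97 counts, but P33 was higher in 5 libraries and P35 in 4. By stage, P33 had 30 counts in Pre-CL, 11 in CL and 68 in PL, while P35 had 31, 44 and 22 in the same order. Across the 9 libraries the arms of P17 and P8 had a Pearson's r of 0.84 in log2 of counts per 1000000 miRNA counts plus 1. It was 0.78 for P23 and P34, 0.31 for P5 and P42, -0.0084 for P18 and P32, -0.37 for P24 and P64 and -0.44 for P33 and P35. These are descriptions over libraries of 3 stages with few counts. P23 and P34 were both called lower in PL against CL, and P34 was listed at 0 in all 3 PL libraries, where P23 had 11, 8 and 8 counts. P18 and P32 were called in no comparison.

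**Figure D4:**
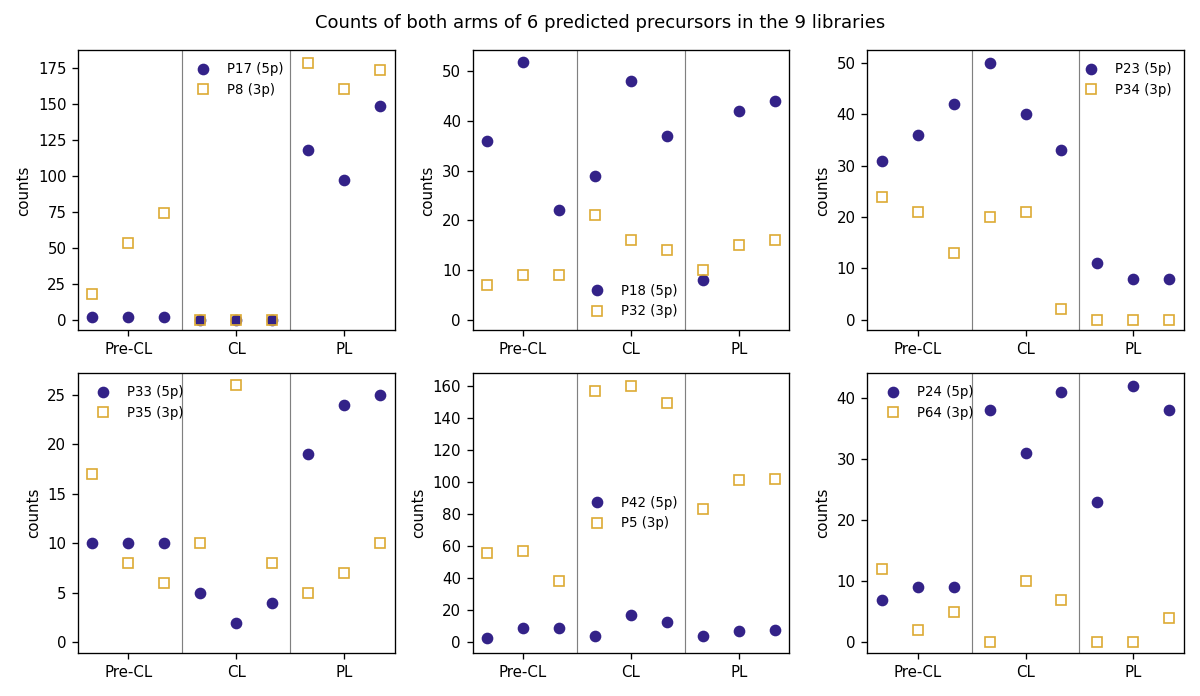
Counts of the 5p arm (filled circles) and the 3p arm (open squares) of 6 predicted precursors in the 9 libraries, ordered from Pre-CL to PL. P8 and P17 are both at 0 in CL, P5 exceeds P42 in every library, and P33 and P35 change places between CL and PL.

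Restriction to a stage was rare. Counts in all 3 libraries of a stage and 0 in the other 6 were found for 4 predicted miRNAs, beside 3.92% of all 918 references. P31 and P135 were restricted to Pre-CL (0.654% of all references), P65 and P119 to PL (2.72%), and none to CL (0.545%). P65 had 14, 8 and 18 counts in the PL libraries and P119 had 2, 3 and 11. P135 had 2, 3 and 5 counts in the Pre-CL libraries. At least 3 counts in each library were reached by P31 and P65 alone. P65, P119 and P135 were named after their values were seen. An absence from a single stage, with counts in all 3 libraries of both others, was found for P8 and P17 in CL, for P34, P60 and P94 in PL, and for P29, P48, P49, P50, P55, P58, P61 and P72 in Pre-CL. The share of all 918 references with such an absence was not taken, so the list does not set the predicted miRNAs apart. With 3 counts taken as the limit that a 0 allows, a listed 0 allows up to 0.442 to 0.797 counts per 1000000 miRNA counts, depending on the library and for counting error only, as these reads carry no molecular identifiers.
P65: cGCGTGGCatgtagcgttcggg
P119: aGCTAGACattgagagatctct
P135: tGTTTCTCttgctgtccctt

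The authors' table of miRNA-target pairs listed 64 of the 155 predicted miRNAs, in 8424 of its 30524 pairs (27.6%). Targets there were predicted on the whelk's own transcripts and pairs were kept when the level of the messenger ran against that of the miRNA over the stages, so the opposite direction of the values below is what the pairs were chosen for. A predicted miRNA had 6 to 389 pairs with a median of 108.5, against 9 to 895 with a median of 126 for known miRNAs. The pairs involved 5752 target genes, of which 3350 were also paired with a known miRNA, 58.2% of the targets of predicted and 37.2% of those of known miRNAs. Of the 5752, 4003 were paired with 1 predicted miRNA and 30 with at least 5 different predicted sequences. An annotation was given for 2183 (38.0%).

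Many pairs belonged to predicted miRNAs with few counts. Of the 64, 42 had under 100 counts and 31 had too few to be tested by edgeR, and these 31 held 5053 of the 8424 pairs. The 27 that edgeR called held 2584. P102, with 22 counts over all libraries, had the highest number of pairs, 389, and P135, with 10 counts, had 331. P8, with 656 counts, had 9 pairs, P5 had 15, P17 had 16 and P2 had 57. P1 was not in the table, which is no sign that it lacks targets. Copies with one sequence had the same targets, as in the 92 targets of P14 and of P15, while P17 and P8, and likewise P23 and P34, shared no target between the arms of their precursor.

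**Figure D5:**
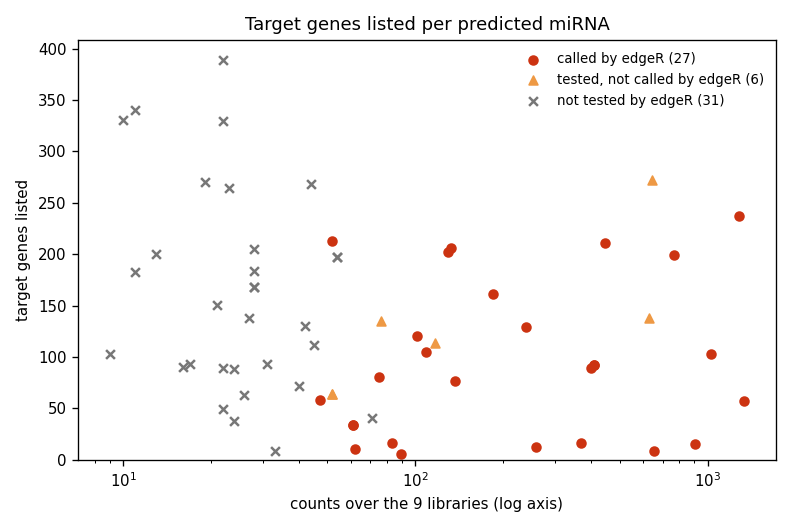
Number of target genes listed for each of the 64 predicted miRNAs in the pair table against its count over the 9 libraries (log axis), for those called by edgeR in at least 1 comparison (27), tested but not called (6) and not tested for low counts (31). The highest number, 389, belongs to P102 with 22 counts, and P8 with 656 counts has 9.

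Target genes were grouped by words in their annotation, and levels are the authors' mean FPKM (fragments per kilobase of transcript, scaled to the sequenced fragments) of each stage from earlier transcriptome libraries, without an error. The single genes below were chosen after their values were seen. The cilia and cytoskeleton list, which holds tektins, dyneins and tubulins of the ciliary axoneme and also actins and myosins, had 73 target genes of 42 predicted miRNAs (1.27% of the targets of predicted and 1.50% of those of known miRNAs). Mean FPKM was lower in PL than in Pre-CL for 55 of them and higher for 14, where of all 5752 targets of predicted miRNAs 49.2% were lower and 49.8% higher. Of all 11401 target genes paired with any miRNA, 60.7% were lower and 37.9% higher. The difference of the list from these shares was not tested. P55, which had no count in Pre-CL, was paired with a gene annotated as a cytoplasmic dynein light chain (c85823_g2), at 896 FPKM in Pre-CL, 164 in CL and 36.3 in PL. P31, found in Pre-CL alone, was paired with a paramyosin gene (c119060_g1), a protein of molluscan catch muscle, at 92.8, 1049 and 919 FPKM in the same order.

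The digestion list had 22 target genes of 25 predicted miRNAs (0.382% of the targets of predicted and 0.489% of those of known miRNAs), 13 lower and 7 higher in mean FPKM in PL than in Pre-CL. Some of those higher in PL are annotated as lysosomal enzymes. An example is an alpha-glucosidase (c155999_g2) paired with P30, at 3.19, 9.84 and 19.4 FPKM from Pre-CL to PL. P24 was paired with an alpha-amylase gene (c156902_g1), a starch-digesting enzyme, at 29.1 FPKM in Pre-CL, 6.93 in CL and 1.45 in PL. P55 was paired with a trypsin gene (c133924_g1), a protein-digesting enzyme, at 1727 FPKM in Pre-CL, 249 in CL and 0.417 in PL. The apoptosis list had 19 target genes of 23 predicted miRNAs (0.330% of the targets of predicted and 0.378% of those of known miRNAs), 12 higher and 7 lower in PL than in Pre-CL, although some of its members match through the names of complement C1q and tumor necrosis factor-related proteins and are not known to act in cell death. P30 was paired with a caspase gene (c150290_g1), a protease of cell death, at 2.43, 5.14 and 14.8 FPKM from Pre-CL to PL, and P6 with an inhibitor of apoptosis (c150932_g4), at 133, 185 and 281 FPKM. The same inhibitor was paired with P99, which had 22 counts. P4 was paired with another gene of that annotation (c151900_g1), at 4.23, 4.61 and 10.5 FPKM. The cell adhesion list had 22 target genes of 24 predicted miRNAs (0.382% of the targets of predicted and 0.522% of those of known miRNAs), 10 higher and 12 lower, among them a type IV collagen of the basement membrane (c155539_g1) paired with P31, at 10.8, 47.8 and 19.2 FPKM. P8 was paired with a gene annotated as the zinc finger protein AEBP2 (c55857_g1), at 0.56 FPKM in Pre-CL, 4.66 in CL and 0.35 in PL.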

How the data were processed

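Per the labels and the study's methods, 18 to 30 nt RNA was sequenced on an Illumina HiSeq, tags of other RNA classes were removed, tags within 2 mismatches of miRBase were counted as known miRNAs, and further miRNAs were predicted with MIREAP. The authors deposited whole-number counts per reference, which were used as they stood. The deposited TPM, scaled by the authors to annotated miRNA tags with 0 written as 0.01, are recorded as a score and were used for a check alone. FPKM are the authors' stage means. The authors' tag totals per RNA class were used as deposited. The authors' own log2 ratios, p-values and correlations were not used. The aligner of the reads is not given in the sources used here.

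All 918 references and 9 libraries entered one fit in edgeR 4.0.16 (R 4.3.3), with TMM, filterByExpr by stage, no covariate, and two-sided quasi-likelihood contrasts with Benjamini-Hochberg adjustment. The SE is the size of the fitted change in log2 divided by the root of its F statistic. Fold bounds use a floor of 3 counts per library, and stages with few counts are given as ratios of summed counts with an exact binomial interval (scipy). Arms were folded with ViennaRNA 2.7.2 and edits counted with edlib, with tables in Python 3.11.15, pandas 2.3.3 and numpy 2.4.6. Replicates are separate samples per the labels, so p-values measure the spread between them. The fit was tested on simulated data. Words were searched in annotations without organism names. Polyglutamylases were kept out of the digestion list alone, and disintegrins out of the cell adhesion list.

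The entries, lists and rules were chosen with earlier results of these data known. Named entries are those the study names, the 10 with the most counts, the 3 with the largest fold change among those called in each comparison and direction with 10 counts or more per library of a stage, stage-restricted ones reaching 10 counts per library, and both arms of a tested precursor with 10 counts or more on each. Others named were chosen after their values were seen. Alternatives were DESeq2 1.42.0, other library sizes, no filter, only the 6 libraries compared, no limit on the fold change, copies taken once, a replicate block, each library left out, 3 counts for restriction, seed bases 2 to 7, and only called miRNAs for pairs. No genome was given, so positions of the precursors are not analysed here.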

Additional observations from a re-analysis of the deposited data

How the results depend on the processing

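With only the 6 libraries of a comparison fitted, the predicted miRNAs called higher were 4 in CL against Pre-CL (9 with all libraries), 8 in PL against CL (5) and 6 in PL against Pre-CL (10). The filter on low counts was run again on those 6 libraries, so entries that had passed through the remaining stage alone were not tested there. With total miRNA counts as library size, 9 were higher and 7 lower in PL against CL, and 16 were higher in PL against Pre-CL. Without a filter on low counts, 8 were higher in PL against CL and 16 in PL against Pre-CL. With each library left out in turn, calls ranged from 13 to 19 in CL against Pre-CL (9 to 11 higher, 3 to 9 lower), from 10 to 20 in PL against CL (4 to 8 higher, 6 to 15 lower) and from 26 to 37 in PL against Pre-CL (10 to 16 higher, 16 to 22 lower). The cause was not tested. Over clean reads the summed level was 758 per 1000000 in Pre-CL, 516 in CL and 440 in PL, and without P1 it was 378, 295 and 395 per 1000000 miRNA counts, the denominator or the member left out being the change made. By construction, 2 entries were restricted to a stage at 3 counts per library, 43 shared bases 2 to 7 with a known reference, and 2584 pairs belonged to called miRNAs.

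Deviations of libraries with one replicate number correlated at -0.28 to 0.29 between stages, and those of libraries with unlike numbers at -0.45 to 0.40. No pairing by number was seen, but so few correlations cannot show that libraries with one number had nothing in common. With a replicate block, 17, 15 and 30 were called in CL against Pre-CL, PL against CL and PL against Pre-CL. Of 42 called values of named entries, the block lost 2, DESeq2 2, clean reads 1, total miRNA counts 4, no filter 7 and the left-out libraries 3 to 8 each, and no direction turned. With only the 6 libraries compared, 36 stayed called and 1 was lost. The rest were not tested there, as their entries did not pass the filter on low counts. Of the 155 entries, 104 did not pass the filter on low counts, which left out entries of up to 74 counts.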
